A study of Mus musculus with 17 samples.

Results

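MiR-21 was followed in the mouse kidney for a month after ischemia reperfusion injury (IRI). It is 1 of the 569 mature mouse miRs on the arrays, found by its name, mmu-miR-21, among the 6 spots that each miR has on an array and in the row of the processed values that carries the same name. The study asked whether miR profiles set injured kidneys apart from control kidneys. It compared 3 groups of C57/BL6 mice aged 10 to 12 weeks. IRI mice had 30 min of warm ischemia, which the study describes as unilateral, followed by reperfusion. Sham mice had an operation without ischemia, and naive mice were untreated. Kidneys of IRI and sham mice were taken on days 1, 3, 5 and 7, and then on days 10, 14, 21 and 30. The labels give female mice and the study's methods male mice.

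Each of the 17 samples was RNA pooled from 3 mice, with 1 pool per arm and day and 1 naive pool. No day therefore has a replicate, and the spread of an arm is that between its 8 days. The IRI pool of a day was always labelled with Cy3 and hybridised with the sham pool of that day in Cy5, so that a difference between the dyes at the probe cannot be told apart from the mean IRI/sham ratio. The naive pool was alone, in Cy3, on an array of its own. The study itself leaves day 10 out of its analysis without giving a reason. In the day 5 file the channels are named only by letters, and they were assigned by the dyes in the labels. The Cy3 channel of that array correlated over miRs at r = 0.998 with the processed IRI values of day 5 and at 0.941 with those of sham. The sham library of day 30 stood apart by miR-122, a miR of liver cells, whose normalized level there was 2975 against 54.8 to 129 in the other samples.

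A miR is cut from a hairpin in a longer transcript, and 1 arm of the hairpin is loaded into Argonaute, where its seed (bases 2 to 8) pairs with messenger RNAs that are then repressed. MiR-21 is made in most cell types and is known for its induction in wounded, inflamed and fibrotic tissue, where STAT3, AP-1 and TGF-beta signalling raise it. Pdcd4 and Ppara are among its known targets, and in the kidney it has been studied in tubule cells, fibroblasts and macrophages.

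The sequences below show what the miR-21 probe reads and which other miRs carry its seed, in capitals. The array's miR-21 is the 22-base RefSeq miR-21a-5p, and miR-21* comes from the other arm of the same hairpin. MiR-590-5p is the only other miR on the array with the seed of miR-21. MiR-21c is in RefSeq and not on the array, and it has the same first 15 bases as miR-21.
mmu-miR-21: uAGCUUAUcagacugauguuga
mmu-miR-21*: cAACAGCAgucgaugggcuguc
mmu-miR-590-5p: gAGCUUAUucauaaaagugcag
mmu-miR-21c: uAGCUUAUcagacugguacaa

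The hairpin Mir21a lies on the minus strand of chromosome 11 in GRCm38.p6, at chr11:86584067-86584158, inside the span of Vmp1, which encodes a membrane protein of autophagy (chr11:86583858-86683836). In the 92-base hairpin, shown 5′ to 3′ with both arms in capitals, miR-21 is the first arm (bases 18 to 39) and miR-21* the second (bases 56 to 77).
Mir21a: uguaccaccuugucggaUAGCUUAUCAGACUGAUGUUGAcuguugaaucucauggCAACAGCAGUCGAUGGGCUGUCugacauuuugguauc

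The miR-21 probe was above background (the median of the empty spots plus 3 scaled median absolute deviations) in 17 of 17 samples, the miR-21* probe in 3 of 17 and the miR-590-5p probe in 1 of 17. The mean intensity of the miR-21 spots over background reached 56348, whereas the highest value of miR-21* was 190 and that of miR-590-5p was 187. A probe's signal depends on its sequence, so that the amounts of the 3 miRs are not compared. MiR-21* and miR-590-5p did not reach the level of 200 needed for testing. How much the miR-21 probe reads miR-21c was not tested.

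MiR-21 was high in every injured sample. Its raw spot intensity in IRI, before any background correction or normalization, was 37403, 46676, 41768 and 56614 on days 1, 3, 5 and 7, and 48509, 51028, 43079 and 34515 on days 10, 14, 21 and 30. In sham it was 4676, 13772, 4098, 8400, 1361, 4286, 3400 and 1380 on the same days. In naive it was 739, against a limit of 563 for a signal above background. Each IRI value lay above each sham value, and naive was below all of them, close to the limit of detection.

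The 6 spots agreed closely in most samples. Their CV was between 1.46% and 5.58% in IRI on 6 of the 8 days, and between 5.27% and 11.2% in sham. On days 14 and 30 it was 21.4% and 18.5% in IRI, and there the spots in the upper rows of the array were 0.53 and 0.49 brighter on the log2 scale than those in the lower rows. The brightest single spot, on day 14 in IRI, reached 62768, near 65535, the highest intensity of any spot on these arrays. Whether intensities near the top of the range are compressed was not tested.

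After normexp background correction, loess within the array and quantile normalization across arrays, the normalized log2 level of miR-21 in IRI was 14.12, 14.76, 14.73, 14.73, 14.82, 14.52, 14.22 and 14.24 from day 1 to day 30. In sham it was 12.14, 12.89, 12.02, 12.92, 11.44, 11.51, 11.61 and 11.58. In naive it was 10.90. The lowest IRI level exceeded the highest sham level by 1.20 on the log2 scale, and the lowest sham level was above naive. Only 4 of the 154 miRs tested had every IRI sample above every sham sample (2.6%), namely miR-21, miR-15b, miR-199a-3p and miR-25, and the gap of miR-21 was the widest of them.

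**Figure D1:**
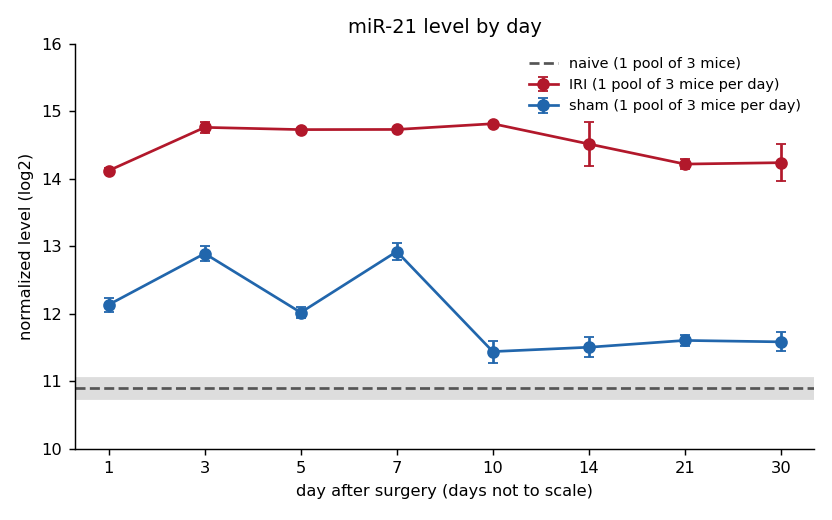
Normalized log2 level of miR-21 (y axis) by day after surgery (x axis, days not to scale) in IRI (red) and sham (blue), with bars for the SD over the 6 spots of 1 array. The dashed line with its grey band is naive ± the same SD. IRI stays between 14.12 and 14.82 and sham between 11.44 and 12.92, all above naive at 10.90.

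In the IRI arm the highest day, day 10, was at 14.82 and the lowest, day 1, at 14.12, further apart than their spot SDs of 0.03 and 0.04. Ordered from high to low the days were days 10, 3, 7, 5, 14, 30, 21 and 1, and the last step, from day 21 to day 1, was the only one between neighbours that exceeded their combined spot SD (0.10 against 0.08 on the log2 scale). In sham the order was days 7, 3, 1, 5, 21, 30, 14 and 10. The steps from day 3 to day 1 (0.76) and from day 5 to day 21 (0.41) were larger than the combined spot SDs of 0.16 and 0.11, and the other steps were not. Sham was thus highest on days 3 and 7 and lowest from day 10 to day 30. The order of the days depended on the processing. By the authors' processed values day 14 was highest in IRI (37621) and day 3 in sham (8829). Day 1 stayed lowest in IRI (19453) and day 10 in sham (2816). The raw intensity in IRI was highest on day 7 (56614) and lowest on day 30 (34515). The spot SD covers the array only, was taken before loess and quantile normalization, and holds no spread between mice. The IRI and the sham level of a day were built from the normalized mean of their array and its IRI/sham ratio. At the same array mean, a higher ratio raises IRI and lowers sham, so that the courses of the arms are not separate observations. The gap between days 3 and 7 was 0.031 in both arms, and that between days 21 and 30 was 0.021 in both.

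The IRI/sham ratio was above 1 on all 8 days. On the log2 scale it was 1.99, 1.87, 2.71, 1.81, 3.38, 3.01, 2.61 and 2.66 from day 1 to day 30, with a spot SD between 0.08 and 0.20. These are 3.96, 3.66, 6.55, 3.50, 10.4, 8.07, 6.13 and 6.31-fold. A ratio of at least 2-fold on every day was seen for 2 of the 154 miRs (1.3%), miR-21 and miR-15b. In this normalization the ratio was lowest on days 1, 3 and 7 and highest on days 10 and 14. With median scaling of the channels it was highest on day 30 (3.80). With plain background subtraction it was highest on days 10 (3.67) and 30 (3.01).

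Over the 8 arrays the mean log2 IRI/sham ratio of miR-21 was 2.50 (SE 0.19, n = 8 days), or 5.68-fold, with a Benjamini-Hochberg adjusted p of 5.23e-05 by limma. An exact two-sided sign-flip permutation test over the arrays gave p = 0.0078125, the smallest that 8 arrays allow (adjusted p over the 4 exact permutation tests 0.03125). Of the 154 miRs, 58 (37.7%) passed the threshold in either direction and 30 (19.5%) were higher in IRI, so that passing it is common among these miRs. MiR-21 had the highest mean ratio of the 154. MiR-21 was chosen with these results known, so that the test is not independent evidence. Without day 5, whose channels carried no group name, the mean was 2.48 (adjusted p = 0.000237 by limma), and without day 30, whose sham library held miR-122, it was also 2.48 (0.000407).

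The size of the ratio on single days depended on how the channels were scaled. With each channel scaled to a common median instead of the loess, the log2 ratio of day 3 fell to 0.44 and that of day 30 rose to 3.80, whereas the mean was 2.31 (adjusted p = 0.000764 by limma). That scaling also moved the median log2 ratio of all miRs tested from -0.02 to 0.22. From the authors' processed values the ratio was 4.54, 3.74, 6.65, 4.17, 11.4, 10.3, 7.77 and 8.08-fold from day 1 to day 30. From the raw signal over background, with no scaling, it ranged from 3.38-fold on day 3 to 36.3-fold on day 10. The mean signal over all miRs was also lower in the sham channels (526 to 1057) than in the IRI channels (1114 to 1412).

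**Figure D2:**
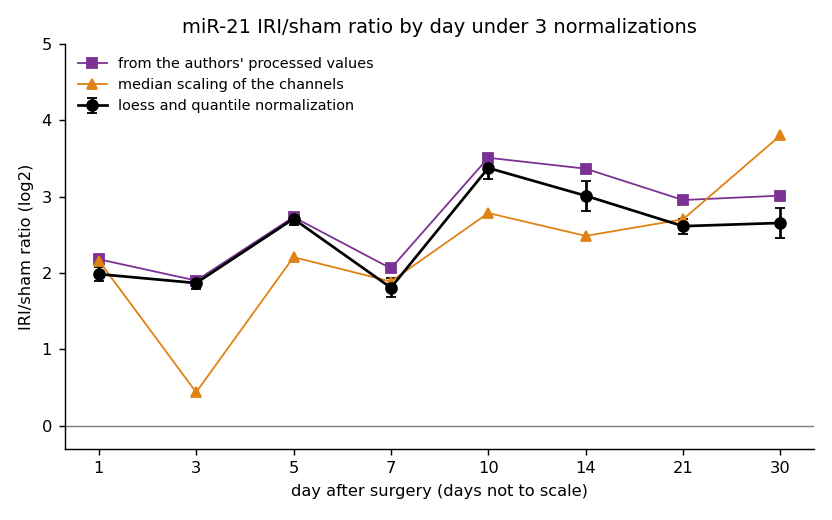
Log2 IRI/sham ratio of miR-21 (y axis) by day after surgery (x axis, days not to scale). Black is the ratio after loess and quantile normalization with the SD over 6 spots, purple the ratio of the authors' processed values and orange the ratio after median scaling of the channels. All points are above 0, and the normalizations lie furthest apart on days 3 and 30.

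Whether the courses of the arms differ was asked by the slope of the log2 ratio over log2(day), in which a dye bias that is equal on all arrays cancels. The slope was 0.20 per doubling of the day (SE 0.11), with an adjusted p of 0.308 by limma and a p of 0.142 by an exact permutation of the days. No change of the ratio with time was therefore shown. Of the 154 miRs, 4 (2.6%) passed the threshold for this slope. The slope was positive under every alternative and with any 1 day left out, between 0.17 and 0.39 per doubling, and never passed the threshold. Without day 30 it was 0.25 (adjusted p = 0.375).

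Within IRI the slope of the miR-21 level over log2(day) was -0.01 (SE 0.07, adjusted p = 0.946 by limma). Within sham it was -0.21 (SE 0.12, adjusted p = 0.579). The levels of a day share the mean of their array, so that these slopes are not independent. The exact permutations of the days gave p = 0.885 in IRI and 0.150 in sham. For comparison, 16 miRs (10.4%) passed the threshold for a slope in IRI and 2 (1.3%) for a slope in sham. The IRI slope of miR-21 was near 0 and changed its sign with the processing, to 0.055 with the authors' processed values. Without day 1 it was -0.18 in IRI (adjusted p = 0.246 by limma) and -0.41 in sham (0.229).

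Against naive, miR-21 was 9.35 to 15.1-fold higher in IRI (mean log2 difference 3.62, SD 0.28 over 8 days) and 1.46 to 4.08-fold higher in sham (mean log2 difference 1.12, SD 0.60). These are descriptions, since naive is 1 pool on 1 array. IRI and naive were both in Cy3 and sham was in Cy5. For any miR, a difference of sham from naive therefore cannot be told apart from one between the dyes. Every IRI sample was at least 2-fold above naive for 20 of the 154 miRs (13%), and every sham sample was above naive for 62 (40.3%). In the authors' processed values naive was 2217, sham between 2816 and 8829 and IRI between 19453 and 37621. The naive array was dim, with a mean miR signal over background of 209 against 1114 to 1412 in the IRI channels and 526 to 1057 in the sham channels, and the size of both differences rests on the step that brings the arrays to a common level. Without quantile normalization the mean log2 differences were 6.71 for IRI and 4.20 for sham, and with median scaling 7.15 and 4.84.

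The rank of miR-21 was higher in the injured kidney than in sham on each day. Among the 569 miRs of a sample its spot signal ranked 37 in naive. In sham it ranked 15 on days 3 and 7, 25 on day 30 and 26 on the other 5 days. In IRI it ranked 6 on day 1, 1 on days 3, 7, 14 and 21, 5 on day 5, 4 on day 10 and 3 on day 30. By the authors' processed values it ranked 1 on days 7 and 14 in IRI and between 3 and 7 on the other days, between 16 and 33 in sham and 35 in naive. A probe's signal depends on its sequence too, so that only the change of rank between samples is read. Between IRI and sham that change also spans the dyes, whereas IRI and naive were both in Cy3. By the IRI/sham ratio of a single day, miR-21 ranked 1 on day 10, 4 on day 30 and 2 on the other days. The miR with the highest ratio on those days changed, from miR-218 on day 1 to miR-146b on days 14 and 21 and miR-146a on day 30. A ratio of at least 2-fold was reached by 8.44%, 5.84%, 6.49% and 9.09% of the 154 miRs on days 1, 3, 5 and 7, and by 5.84%, 14.9%, 13% and 17.5% on days 10, 14, 21 and 30, miR-21 among them on each day.

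**Figure D3:**
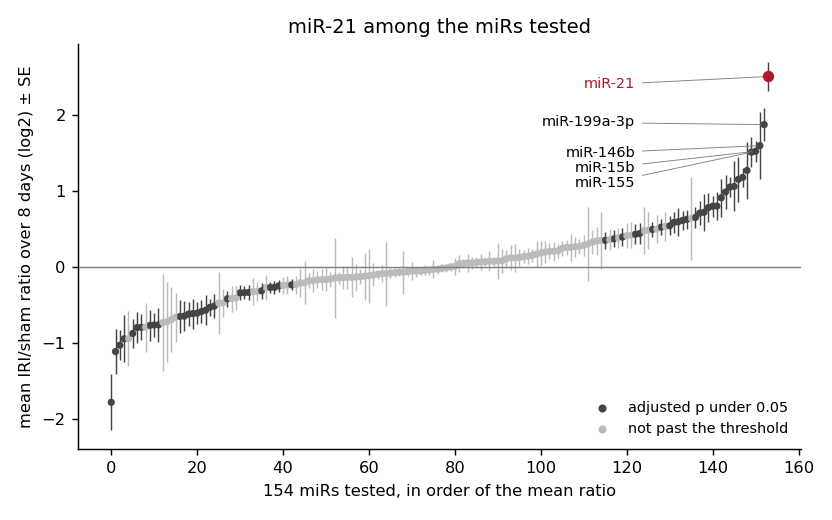
Mean log2 IRI/sham ratio over 8 days ± SE (y axis) of the 154 miRs tested, in ascending order (x axis). Dark points had a limma adjusted p under 0.05. MiR-21, in red, lies highest at 2.50, ahead of miR-199a-3p at 1.87.

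The next miR after miR-21 in this order was miR-199a-3p, which is abundant in fibroblasts, whose log2 ratio averaged 1.87 over the days (SE 0.22, adjusted p = 0.000569 by limma). It was followed by miR-146b at 1.60 (SE 0.44) and miR-15b at 1.52 (SE 0.14). In the authors' processed values miR-146b came first at 2.80 (SE 0.47) and miR-21 second at 2.72 (SE 0.21), a difference smaller than either SE. The ratio of miR-199a-3p rose with time (slope 0.39, adjusted p = 0.0253 by limma), and so did its level in IRI (slope 0.41, adjusted p = 0.0119). The first call was lost with the authors' processed values (adjusted p = 0.0807), plain subtraction (0.265), median scaling (0.0931) and no filter (0.0909) and without day 30 (0.128), and the second with median scaling (0.328) and without quantile normalization (0.0790). The slopes themselves lay between 0.35 and 0.54 and between 0.37 and 0.44 in these settings. The difference between its slope and that of miR-21 was not tested.

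Which miRs varied most like miR-21 was described by Pearson's r among the miRs above background in all 17 samples, 103 besides miR-21. Over the normalized log2 levels of the 16 IRI and sham samples the highest were miR-15b (r = 0.94), miR-25 (0.86), miR-106b (0.86), miR-20a (0.85) and miR-199a-3p (0.84). The median r over the 103 miRs was 0.04, and the lowest was -0.80, for miR-805. The 16 points share arrays in pairs and fall into IRI and sham, so that a miR higher in IRI on most days tends to have a high r. All 5 were higher in IRI on 8 of 8 days, by a mean log2 ratio of 1.52, 1.18, 0.49, 0.80 and 1.87. MiR-25 and miR-106b are made from the same host gene, Mcm7, and miR-20a belongs to the related miR-17 cluster. MiR-106b and miR-20a share a seed, whereas none of the 5 has the seed of miR-21.
mmu-miR-15b: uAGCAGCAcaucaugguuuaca
mmu-miR-25: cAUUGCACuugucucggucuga
mmu-miR-106b: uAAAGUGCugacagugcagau
mmu-miR-20a: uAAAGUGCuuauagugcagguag
mmu-miR-199a-3p: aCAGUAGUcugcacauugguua

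MiR-15b, which is known to restrain the cell cycle, had the highest r with miR-21. Its normalized log2 level ranged from 11.20 to 12.13 in IRI and from 8.99 to 10.63 in sham, with naive at 8.63. As with miR-21, the arms did not overlap, sham was above naive on each day, and sham was lowest on day 10. Its ratio was 2.40 on day 10, the highest of its days, and between 1.14 and 1.74 on the others.

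Over the log2 IRI/sham ratios of the 8 arrays, where the shift between the arms plays no part, the highest r with miR-21 were lower. They were 0.69 for miR-10a, 0.67 for miR-199a-3p, 0.62 for miR-10b, 0.54 for miR-15b and 0.48 for miR-200c, each over 8 points. MiR-10a and miR-10b, which lie in the Hox clusters, share a seed and differ at few bases, so that their signals can be shared. The log2 ratio of miR-10a was 0.18, -0.02, 0.09, 0.19, 1.10, 0.95, 0.72 and 1.54 from day 1 to day 30. It was near 0 up to day 7 and higher from day 10 on, and that of miR-10b lay between -0.15 and 0.02 up to day 7 and between 0.51 and 1.15 after it. The mean ratio passed the threshold for miR-10a (0.59, adjusted p = 0.0340 by limma) and not for miR-10b (0.33, 0.134) or for miR-200c (0.15, 0.191), a miR of epithelial cells.
mmu-miR-10a: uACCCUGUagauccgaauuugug
mmu-miR-10b: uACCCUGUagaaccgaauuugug

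**Figure D4:**
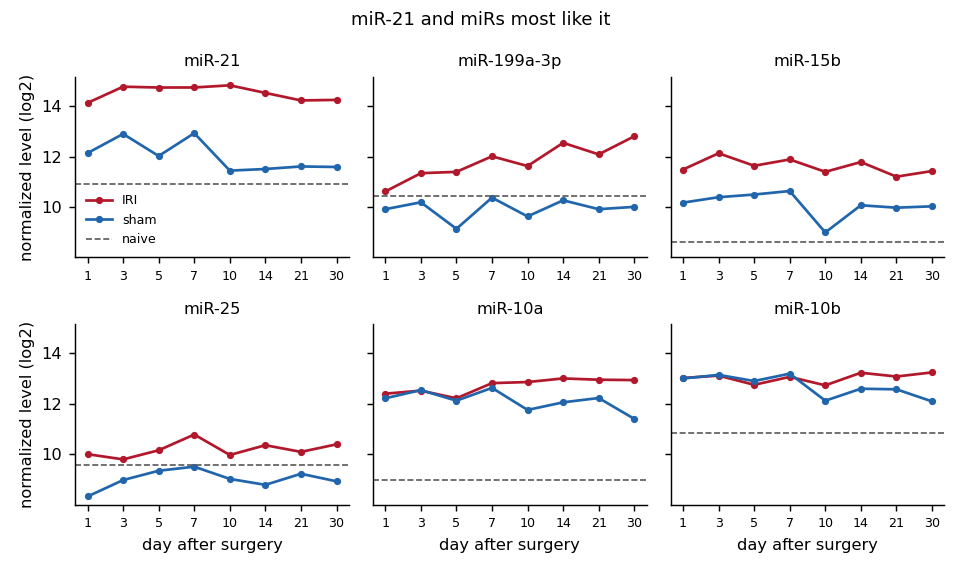
Normalized log2 level (y axis) by day after surgery (x axis) of miR-21 and 5 miRs among the most like it, in IRI (red), sham (blue) and naive (dashed). MiR-21, miR-199a-3p, miR-15b and miR-25 have IRI above sham on each day, whereas for miR-10a and miR-10b the arms part from day 10 on.

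Of 20 listed miRs that the field links, as miR-21, to fibrosis and the epithelial state, 19 were on the array and 16 were tested, and 3 were higher in IRI, 6 lower and 7 not past the threshold. Over all miRs tested 19.5% were higher and 37.7% passed in either direction, so that the count of higher members is near that background, and 18.2% were lower. The median log2 ratio of the 16 was -0.30, against -0.02 over all 154 miRs. The higher ones were miR-199a-3p, miR-214 (1.15, SE 0.30, higher on 6 of 8 days) and miR-199a-5p (0.43, SE 0.13), which come from related mesenchymal loci. The lower ones were the tubule and epithelial miRs miR-200a (-1.11, SE 0.30), miR-192 (-0.87, SE 0.19), miR-194 (-0.76, SE 0.15), miR-429 (-0.51, SE 0.15), miR-200b (-0.42, SE 0.11) and miR-30d (-0.34, SE 0.10). Other members of the same families did not pass, namely miR-200c at 0.15, miR-30b at 0.26, miR-30c at -0.27, miR-30a at -0.32 and miR-30e at -0.42. MiR-29a and miR-29c, which target collagens, had ratios of -0.18 and -0.07 and did not pass either. The count of lower members was 2 of 18 with median scaling of the channels and 1 of 15 with plain background subtraction, and that of higher members was 1 with plain subtraction. Over all miRs tested, 43 of 159 passed with median scaling, 79.1% of them higher in IRI. With plain subtraction 12 of 124 passed, 66.7% of them higher. Without day 30, a setting chosen after seeing the data, 2 were higher and 3 lower, while 21 of the 154 miRs were higher (13.6%) and 16 lower (10.4%).

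Of 13 listed miRs linked to NF-kB, STAT3 or leukocytes, as miR-21 is, 10 were tested, and 6 were higher in IRI, 0 lower and 4 not past the threshold, where 19.5% of all miRs tested were higher. The median log2 ratio of the 10 was 0.95. A miR with a level of 200 in only 1 arm entered the test through that arm, so that these counts describe the tested members only. The 6 were miR-146b (1.60, SE 0.44), miR-155 (1.51, SE 0.20), miR-146a (1.27, SE 0.37), miR-132 (1.05, SE 0.13), miR-223 (0.99, SE 0.22) and miR-150 (0.91, SE 0.25). MiR-146a and miR-146b are induced by NF-kB and restrain its signalling, miR-155 is induced in activated leukocytes and miR-223 is a miR of myeloid cells. Members not past the threshold had ratios between 0.34 (miR-181a) and 0.53 (miR-181b, adjusted p = 0.0507 by limma). The count fell to 3 without day 30, where 13.6% of all miRs tested were higher. It was 2 with values under 200 raised to 200, where 30 of 154 miRs passed in either direction. With plain subtraction it was 0, where 12 of 124 miRs passed in all, miR-21 among them.

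**Figure D5:**
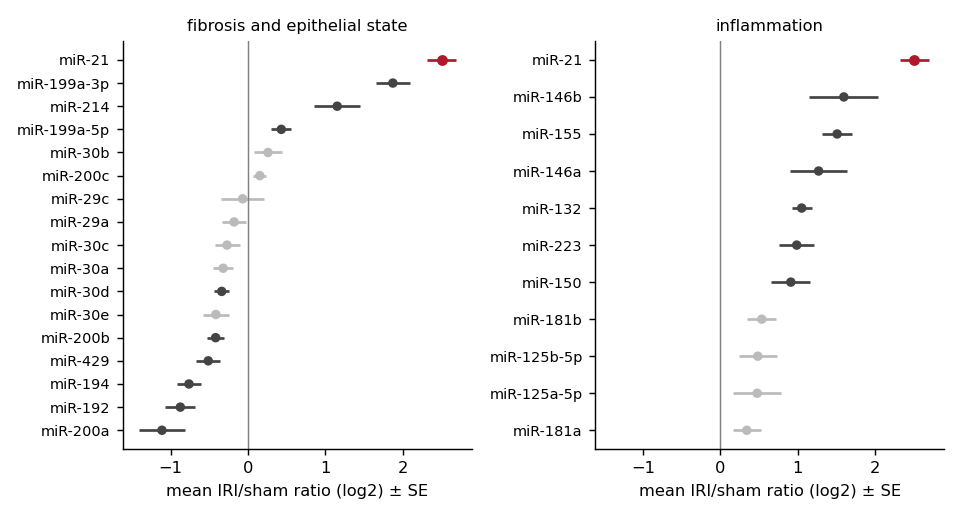
Mean log2 IRI/sham ratio over 8 days ± SE (x axis) of the tested members of the fibrosis and epithelial list (left) and of the inflammation list (right), with miR-21 in red for comparison. Dark points had a limma adjusted p under 0.05. The first list lies on both sides of 0 and the second above 0, all below miR-21 at 2.50.

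Markers of some cell types differed between the arms as well, and their part in the rise of miR-21 was not tested. Of the 5 leukocyte miRs, 3 reached the level for testing and were higher in IRI, where 19.5% of all miRs tested were higher. They were miR-155, miR-150 and miR-223, the last above background in 9 of 17 samples. Without day 30, 2 of them were higher, where 13.6% of all miRs tested were. A marker can have entered the test through the arm where it is high, so that these counts describe the tested members only. MiR-142-3p and miR-142-5p were above background in 2 of 17 samples each. The summed normalized level of the 5 was 1468 to 3218 in IRI, 818 to 1165 in sham and 644 in naive, and it was higher in IRI than in sham of the same array on 8 of 8 days. Of the 6 tubule miRs 4 were tested and 3 were lower in IRI, where 18.2% of all miRs tested were lower, and the summed level was 8635 to 17996 in IRI, 15017 to 21499 in sham and 19487 in naive, lower in IRI on 8 of 8 days. Of the 4 miRs of smooth muscle and fibroblasts 2 were higher (miR-199a-3p and miR-214), whereas miR-143 (-0.14) and miR-145 (-0.14) did not pass, and the summed level was 5510 to 14469 in IRI, 4163 to 12826 in sham and 9215 in naive, higher in IRI on 8 of 8 days. With plain subtraction 0 leukocyte, 1 tubule and 1 smooth muscle or fibroblast miR passed, where 12 of 124 miRs passed in all. Median scaling left 1 tubule miR, where 43 of 159 miRs passed. Raising values under 200 to 200 left 1 leukocyte miR, where 30 of 154 miRs passed. The other counts of these cell types stayed as they were under median scaling and under the floor. The mean ratio of the tested erythroid (2) and endothelial (1) markers did not pass. The erythroid miRs were among the 4 miRs past the threshold for the slope of the ratio, with -0.79 for miR-451 (adjusted p = 0.0136 by limma) and -0.57 for miR-486 (0.0253), and both calls were lost with plain subtraction, median scaling and no filter, and without day 30 (0.0923 and 0.128), with slopes between -1.07 and -0.64 for miR-451 and between -0.86 and -0.44 for miR-486. The summed erythroid level was 324 to 1189 in IRI, 396 to 1476 in sham and 284 in naive. It was higher in IRI on 2 of 8 days and lower on 6. The summed endothelial level was 5359 to 9078 in IRI, 4986 to 8783 in sham and 3089 in naive. It was higher in IRI on 4 of 8 days and lower on 4. The miRs of liver, brain and muscle were above background in 4 to 8 of 17 samples, with a summed level of 343 to 522 in IRI and 480 in naive, and of 389 to 434 in sham apart from the 3270 of day 30. In tissue RNA, a larger share of cells that carry miR-21 and more miR-21 per cell cannot be told apart.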

How the data were processed

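The authors deposited spot intensities from the scanner, with no background correction or normalization, for 9 arrays, and a table of 1 processed intensity per miR and sample, with steps not given in the sources used here. The RNA was size-selected and tailed before dye staining, per the labels. MiR-21 and the lists were chosen with earlier results of these data known.

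Background was corrected with normexp (limma 3.58.1 in R 4.3.3, offset 50) and the log2 values of the 6 spots were averaged. Loess (span 0.3, control probes at weight 0) was run within the 8 2-colour arrays, followed by quantile normalization of the array means and naive. MiRs with a normalized level of at least 200 in at least 1 sample were tested (154). Ratios and slopes were fitted with lmFit and eBayes over all of them, with p-values adjusted by Benjamini-Hochberg at a threshold of 0.05. The ratio within an array makes the array a block. The correlation of the deviations of IRI and sham from their arm means was between -0.07 and 0.68 over the 8 arrays. Exact permutations were run in Python 3.11.15. P-values measure the spread between days, each 1 pool of 3 mice. The scripts were tested on simulated data with known changes.

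The miRs named were miR-21, the 5 with the highest r by levels and by ratios, the next by mean ratio, probes named after miR-21 or with its seed, and list members past the threshold. MiR-218, miR-805, miR-122 and the markers and list members that did not pass were named after their values were seen. Sequences are from the array files and RefSeq (GRCm38.p6), in which 462 of the 569 array sequences are found. Precision is limited by the number of arrays.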

Additional observations from a re-analysis of the deposited data

How the results depend on the processing

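The mean log2 IRI/sham ratio of miR-21 kept its direction and its side of the threshold under all 15 alternatives (2.31 to 2.73) and with each day left out in turn (2.38 to 2.60). Some alternatives cannot change this mean and left it at 2.50. They were no quantile normalization, the other filters, the floor of 200, the other variance model and no replicate block. Leaving out day 10 is in both sets. The slope of the ratio (0.18 to 0.39 per doubling of the day, 0.024 per day) and that in sham (-0.41 to -0.20 per doubling, -0.037 per day) kept their direction and did not pass under any alternative. With each day left out they were 0.17 to 0.25 and -0.41 to -0.16. The slope in IRI, -0.011, was 0.055 with the authors' processed values and 0.013 with normexp without an offset, and between -0.18 and 0.034 with each day left out. By mean ratio miR-21 ranked 2 with the authors' values and 1 under the other alternatives. The log2 difference of IRI from naive was 7.15 with median scaling, 6.71 without quantile normalization and 3.96 from the lower 3 spots only, a setting chosen after seeing the data. That of sham was 4.84 and 4.20 under the first 2 of these. It was 3.58 to 3.68 in IRI and 0.99 to 1.20 in sham with each day left out. Median scaling gave log2 ratios of 0.44 on day 3, 2.79 on day 10 and 3.80 on day 30. Without the replicate block that the shared array gives, the mean ratio was 2.50 with an adjusted p of 7.61e-07 and the slope 0.20 with 0.450, and no call on miR-21 changed. Of the fibrosis and epithelial list, 1 was higher and 1 lower with plain subtraction, and 2 were lower with median scaling. Of the inflammation list, 0 passed with plain subtraction and 2 with the floor of 200. The count of miRs past the threshold for the mean ratio, 58 of 154, was 12 of 124 with plain subtraction and 43 of 159 with median scaling. It was 30 of 154 with the floor and 104 of 569 without a filter. Of the calls, 51.7% were higher in IRI, against 66.7% with subtraction and 79.1% with median scaling. Plain subtraction moved the median log2 ratio of all miRs tested to -0.15. Counts for the slope of the ratio were 0 to 18, in IRI 0 to 22 and in sham 0 to 4. The cause of these differences was not tested. One pool per day, spots close to the highest recorded intensity and a naive signal close to background limit the precision.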
